A study of Mus musculus with 2 samples.

Results

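The genes described here are 10 endothelial junction and surface genes: the connexins Gja5, Gja4 and Gja1, the adhesion and tight junction genes Cdh5, Cldn5, Esam, Jam3 and Tjp1, and the surface genes Emcn and Ramp2. They were chosen as a named list, with no threshold on values, and make up 10 of the 24543 genes listed in the count tables. All 10 passed the filter on low counts and entered the fit over 11047 genes. Cells positive for CD31 and CD44 were sorted from the caudal region of E10.0 mouse embryos (32 to 33 somite pairs, C57BL/6 background), the stage at which hematopoietic cells emerge from arterial endothelium. The cKO embryos carried VEC-Cre with Nupr1 fl/fl, and the controls were littermates with Nupr1 fl/fl or fl/+, whose Cre status the sources do not give. VEC-Cre is driven by the promoter of Cdh5, itself a member of the set, so recombination is limited to cells that express or once expressed Cdh5 and is passed on to their hematopoietic progeny. The design asks whether loss of Nupr1 changes cells in the endothelial-to-hematopoietic transition (EHT). Each of the 2 replicates was a pool of cells of both genotypes told apart by hashtags. The number of embryos in a pool is not given in the sources used here. The main fit had no term for the pool and treated values from the same pool as independent. Its p-values therefore rest on only 2 pools and are not a test across independent pools or embryos.

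Connexins assemble into hemichannels that dock between neighboring cells as gap junctions, and in developing vessels Gja5 (Cx40) and Gja4 (Cx37) mark arterial endothelium while Gja1 (Cx43) is used more widely. VE-cadherin, encoded by Cdh5, builds the endothelial adherens junction. Claudin-5, ESAM, JAM-C and the scaffold ZO-1 belong to the tight junction. During EHT, flat endothelial cells round up, leave the vessel wall and give up these contacts.

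The connexin genes lie on 3 chromosomes of GRCm38: Gja5 on chromosome 3 from 96904693 to 97077416 (plus strand), Gja4 on chromosome 4 from 127311421 to 127314039 (minus strand), and Gja1 on chromosome 10 from 56377330 to 56402513 (plus strand). The 250 bases before each RefSeq start are printed because the connexins differed from each other in where they were detected. The Gja5 window lies within an intron of the longest Gja5 model. Capitals mark matches on either strand. The letters searched were AGGAAG for ETS factors and ACAAT for SOX factors. Each factor was searched by 1 fixed string, so other forms of its sites were not counted. GGGCGG stands for the GC box and AGATAA for GATA factors. TGTGGT was used for RUNX factors and GTGGGAA for RBPJ of the Notch pathway.
Gja5, chr3:97032152-97032401, plus strand: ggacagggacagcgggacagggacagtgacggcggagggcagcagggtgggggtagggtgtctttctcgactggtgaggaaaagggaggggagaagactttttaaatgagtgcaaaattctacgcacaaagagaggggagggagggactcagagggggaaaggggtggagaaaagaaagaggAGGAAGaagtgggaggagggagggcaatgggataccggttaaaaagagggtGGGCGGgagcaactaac
Gja4, chr4:127314040-127314289, minus strand: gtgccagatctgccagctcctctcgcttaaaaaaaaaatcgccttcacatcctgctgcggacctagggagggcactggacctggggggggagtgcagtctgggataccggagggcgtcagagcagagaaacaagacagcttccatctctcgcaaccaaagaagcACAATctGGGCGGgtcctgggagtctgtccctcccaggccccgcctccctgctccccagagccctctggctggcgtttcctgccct
Gja1, chr10:56377050-56377299, plus strand: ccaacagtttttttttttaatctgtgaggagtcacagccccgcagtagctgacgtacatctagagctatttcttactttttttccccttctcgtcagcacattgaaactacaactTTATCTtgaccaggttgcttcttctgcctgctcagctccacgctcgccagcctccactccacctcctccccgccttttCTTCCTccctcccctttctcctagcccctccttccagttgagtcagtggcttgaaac
The Gja5 window held 1 ETS match and 1 GC box, the Gja4 window 1 SOX match and 1 GC box, and the Gja1 window 1 ETS and 1 GATA match. Of all 32851 promoter windows in the table, 29.5% held the ETS letters, 27.7% the SOX letters, 32.7% the GC box, 9.99% the GATA letters, 14.0% the RUNX letters and 5.42% the RBPJ letters. None of the 3 connexin windows held the RUNX or RBPJ letters.

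The tables name no cell types, so cells were grouped by pairs of marker genes that include no member: Tmem100 and Htra1 (arterial-like), Kitl and Esm1 (plexus-like), Nr2f2 and Aplnr (venous-like), Gfi1 and Neurl3 (EHT-like), Ptprc and Myb (progenitor-like), and C1qa above 200 CPM, or UMIs per 1000000 UMIs of the cell (macrophage-like). A cell needed at least 1 UMI of both genes of a pair and of no other pair. This gave 259 arterial-like, 74 plexus-like, 82 venous-like, 130 EHT-like, 239 progenitor-like and 581 macrophage-like cells of the 2139 deposited. Markers outside the gates were summed as a check. The 3 venous markers summed to 298 to 417 CPM in venous-like cells and to at most 152 CPM in the other 5 groups, mostly through Nrp2 (215 against 8.42 CPM in arterial-like cells), while Ephb4 was at 53.4 CPM in venous-like and 68.5 CPM in arterial-like cells. Plexus-like cells had 638 to 1081 CPM of 5 arterial markers, overlapping the 824 to 976 CPM of arterial-like cells, but led in 3 plexus markers (927 to 1554 against 549.6 to 586 CPM). The 5 EHT markers did not set EHT-like cells (683 to 1007 CPM) apart from progenitor-like cells (633 to 762 CPM), and the 3 progenitor markers, at 538 to 1241 CPM in progenitor-like cells, reached 583 CPM in EHT-like cells, so these groups rest on their gates. UMIs were summed per group, genotype and replicate into 24 sums of 405179 to 14678729 UMIs, and values below in CPM are levels in such sums unless cells outside the 6 groups or pooled sums are named. The 2 pools shared 0 cell barcodes.

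Gja5, the arterial connexin, was at its highest in arterial-like cells, lower in plexus-like and EHT-like cells, and near 0 elsewhere. In arterial-like cells it was at 1356 and 845 CPM in control replicates 1 and 2 and at 1382 and 853 CPM in the cKO replicates. The plexus-like sums held 834 and 784 CPM in the controls and 413 and 461 CPM in the cKO. EHT-like sums held 77.6 and 51.1 CPM in the controls and 136 and 63.5 CPM in the cKO. The 3 sets of values did not overlap, although the lowest arterial-like sum (845 CPM) was only just above the highest plexus-like one (834 CPM). Gja5 was lower in EHT-like than in arterial-like cells by a log2 fold change of -3.67 ± 0.33 (SE; edgeR adjusted p = 3.43e-07). The difference between plexus-like and arterial-like cells, -0.83 ± 0.29, did not pass the threshold (adjusted p = 0.123), but it did with the replicate as a block (-0.78, adjusted p = 0.0165), on thinned counts (0.0453) and without the filter on low counts (0.000683). In venous-like cells only 5 Gja5 UMIs were found in all 4 sums, or 0.749 CPM (exact Poisson 95% interval 0.243 to 1.75, counting error only), against 1078 CPM over the arterial-like sums. The ratio of these pooled levels was 1439 (616 to 4431). An exon of Gja5 overlaps one of Gpr89 on the opposite strand, and whether the counting used strand is not given in the sources used here.

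Gja4 differed from Gja5 in that plexus-like cells had as much of it as arterial-like cells and venous-like cells kept a low level. Arterial-like sums held 1307 and 1701 CPM in the controls and 1169.7 and 1821 CPM in the cKO. Plexus-like sums held 1799 and 1995 CPM in the controls and 832 and 1681 CPM in the cKO. These ranges overlapped, and the log2 difference was 0.10 ± 0.29 (adjusted p = 0.942). EHT-like sums were lower, at 96.8 and 170.1 CPM in the controls and 130.2 and 222 CPM in the cKO, a log2 fold change of -3.16 ± 0.32 from arterial-like cells (adjusted p = 1.16e-06). Venous-like sums lay between 31.1 and 55.9 CPM, below every EHT-like sum. Within the venous-like group, 8 of 82 cells held 87.1% of the Gja4 UMIs and 58 cells held none, so the level there came from few cells.

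Gja1 had another order: it was highest in plexus-like cells. Plexus-like sums held 175 and 206 CPM in the controls and 140.0 and 194 CPM in the cKO, while all 20 sums of the other groups were at or below 53.5 CPM. Gja1 was thus higher in plexus-like than in arterial-like cells by a log2 fold change of 2.95 ± 0.32 (adjusted p = 2.74e-05), with all 4 sums above all 4, and higher than in venous-like cells (venous minus plexus -2.01 ± 0.31, adjusted p = 0.000195). Venous-like sums held 23.4 and 53.5 CPM in the controls and 40.2 and 51.6 CPM in the cKO, and arterial-like sums 16.0 to 30.5 CPM. The difference between these groups, 0.94 ± 0.32, was near the threshold (adjusted p = 0.0407), and it failed with another normalization, with all gates kept, on thinned counts and without any of 3 of the 4 genotype and replicate sets, so it depends on the processing. In EHT-like cells Gja1 was at 13.3 and 37.4 CPM in the controls and 16.5 and 12.8 CPM in the cKO, overlapping the arterial-like sums (log2 difference -0.17 ± 0.33, adjusted p = 0.729). A single EHT-like cell held 24.8% of that group's Gja1 UMIs. Control replicate 2, the highest sum, also had the most of 5 mesenchymal markers, 490 CPM against 26.7 to 124 CPM in the other 3 EHT-like sums. The sign of this difference turned when control replicate 1 or cKO replicate 2 was left out and on thinned counts, so no direction can be given.

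**Figure D1:**
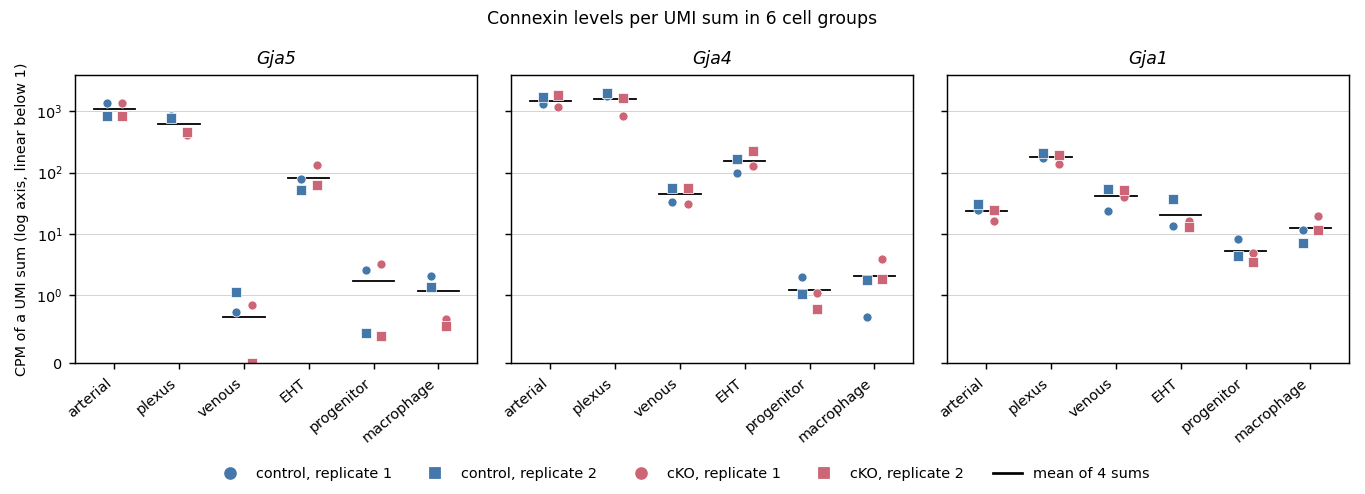
Level of Gja5, Gja4 and Gja1 in each of the 24 UMI sums, in CPM on a log axis that is linear below 1; circles are replicate 1, squares replicate 2, blue control, red cKO, and black lines the mean of the 4 sums of a group. Gja5 falls from 845 to 1382 CPM in arterial-like cells to at most 1.14 CPM in venous-like cells, whereas Gja1 is highest in plexus-like cells, at 140.0 to 206 CPM.

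In arterial-like and EHT-like cells the replicate pools also differed in Gja5 and Gja4, in opposite directions. In arterial-like cells the log2 difference of replicate 2 from replicate 1 was -0.63 (control) and -0.60 (cKO) for Gja5, and 0.43 and 0.73 for Gja4. In EHT-like cells it was -0.55 and -1.005 for Gja5, and 0.86 and 0.85 for Gja4. In plexus-like cells Gja5 gave -0.03 and 0.22. What distinguished the pools was not tested.

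Per cell, the connexins were counted after thinning every cell to 6000 UMIs, because the median depth ran from 24625 UMIs in arterial-like to 80445 in progenitor-like cells. At that depth Gja4 and Gja5 were detected together in 95.7% of arterial-like cells (92.5 to 97.9, a 95% interval by the exact binomial method) and 71.6% of plexus-like cells (59.9 to 81.5), against 99.2% and 82.4% at full depth. In EHT-like cells the share was 23.8% (16.8 to 32.1), or 44.6% at full depth. No thinned venous-like cell held a Gja5 UMI (0 of 82, which allows a share of up to 3.66% at this depth), while 6.10% did at full depth, and 10.98% of the thinned cells held Gja4. Gja1 was detected in 55.4% of plexus-like cells (43.4 to 67.0), in 18.3% of venous-like, 15.4% of EHT-like and 10.9% of arterial-like cells. All 3 connexins were detected together in 44.6% of plexus-like and 10.1% of arterial-like cells. Shares in macrophage-like cells, which should lack the arterial connexins, were 1.04% for Gja5 and 1.56% for Gja4 after thinning. At full depth (median 56362 UMIs) they were 4.30% and 7.92%.

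**Figure D2:**
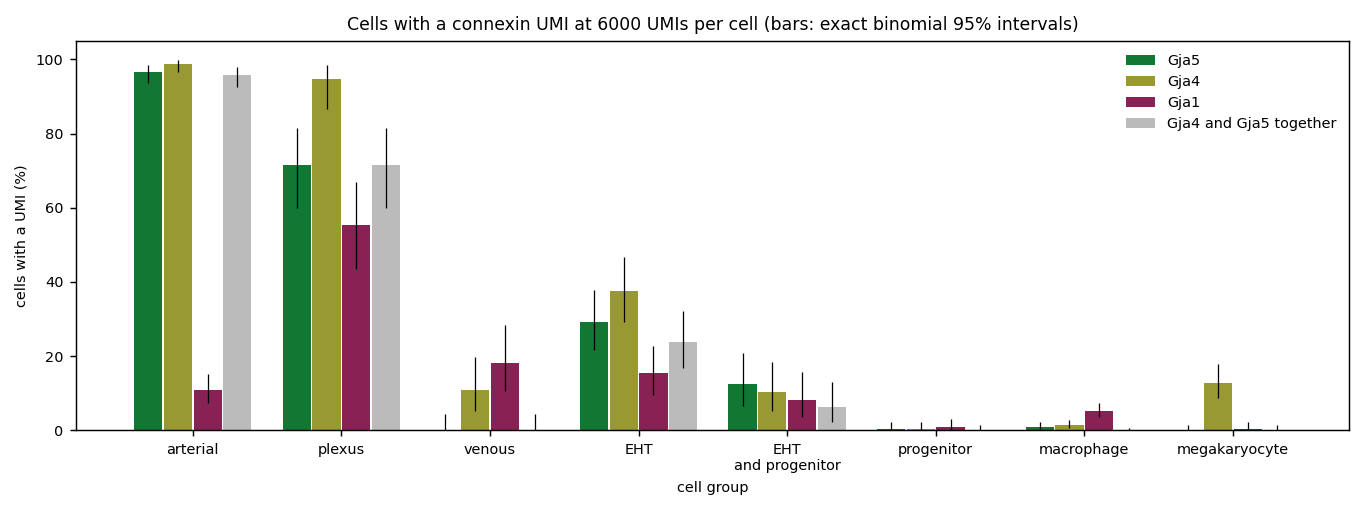
Percent of cells with at least 1 UMI of Gja5, Gja4, Gja1, or of Gja4 and Gja5 together, after thinning each cell to 6000 UMIs; bars are the shares and vertical lines exact binomial 95% intervals, which cover counting error only. Plexus-like cells stand out by Gja1 (55.4%), and Gja5 is at 0% to 1.04% in venous-like, progenitor-like and macrophage-like cells.

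The 3 connexins were unevenly spread among EHT-like cells. Of the 130 cells, 48 held no Gja4 UMI, 63 no Gja5 UMI and 70 no Gja1 UMI at full depth, and the 13 cells with the most UMIs of a gene held 58.2% of the Gja4, 54.8% of the Gja5 and 56.9% of the Gja1 UMIs. A further 96 cells met both the EHT and the progenitor gates. There Gja5 was at 19.7 and 6.46 CPM in the controls and 31.2 and 3.94 CPM in the cKO, below every EHT-like sum. Gja4 was at 17.8 and 8.31 CPM in the controls and 31.8 and 3.94 CPM in the cKO, also below every EHT-like sum. Gja1, at 17.3 to 21.6 CPM, lay inside the EHT-like range, and so did Cdh5 in 1 sum (85.1 to 259 CPM, against 199 to 367 CPM). Jam3 reached 29.6 to 57.2 CPM in these cells. In progenitor-like cells Gja4 and Gja5 were at 0.396 to 3.24 CPM, and 69.0% of the cells held no UMI of any of the 3 connexins at full depth, while 21.3% held Gja1.

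Across the set, 8 of 10 members were lower in EHT-like than in arterial-like cells and 0 were higher. Over all 11047 genes 34.4% passed, 16.6% lower and 17.8% higher, and the median log2 difference was 0.04 against -1.95 over the members. Besides Gja5 and Gja4, the largest fall was in Emcn, a sialomucin of the endothelial surface, from 628 ± 96 to 83.5 ± 11 CPM (SD, n = 4 sums; log2 fold change -2.79 ± 0.29, adjusted p = 1.29e-06). Ramp2, the partner of the adrenomedullin receptor, was at 2929.5 ± 641 CPM in arterial-like and 498 ± 32 CPM in EHT-like cells (-2.43 ± 0.29, adjusted p = 5.97e-06). Its 4 EHT-like values, 459 to 531 CPM, were close together although the pools differed in arterial-like cells (2298 and 2473 CPM in replicate 1, 3603 and 3344 CPM in replicate 2). Exons of Ramp2 overlap Vps25 on the same strand, so reads there cannot be told apart by strand and the level of Ramp2 is uncertain to that extent. Cldn5, the claudin of endothelial tight junctions, fell from 1293 ± 125 to 273 ± 44 CPM (-2.12 ± 0.33, adjusted p = 8.10e-05).

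Cdh5 was at 1127 and 1025 CPM in the arterial-like controls and 1032 and 1083 CPM in the cKO. EHT-like sums held 350 and 233 CPM in the controls and 367 and 199 CPM in the cKO, so the ranges were well apart and EHT-like cells were lower in both pools (log2 fold change -1.77 ± 0.41, adjusted p = 0.00304). Tjp1, which encodes ZO-1, followed it with -1.52 ± 0.37 (adjusted p = 0.00376), and Esam, an immunoglobulin-type adhesion molecule, with -1.36 ± 0.33 (adjusted p = 0.00410). Jam3 (JAM-C) was the exception among the adhesion genes. Its EHT-like sums held 36.2 and 41.9 CPM in the controls and 24.7 and 34.1 CPM in the cKO, against 20.3 and 29.9 CPM and 29.2 and 30.1 CPM in arterial-like cells, and these ranges overlapped (0.44 ± 0.38, adjusted p = 0.407). At 6000 UMIs per cell, Cdh5 was still detected in 70.0% of EHT-like cells and Cdh5 with Cldn5 in 51.5%, against 98.8% of arterial-like cells for the pair. The EHT-like sums also held 27.3 to 1102 CPM of 3 megakaryocyte markers and 26.7 to 490 CPM of 5 mesenchymal markers, against 4.45 to 90.4 and 41.1 to 172 CPM in arterial-like cells. Their part in these results was examined by leaving out cells with such markers (11 of the EHT-like cells), a setting added once the values were known. The same 8 members were then lower.

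**Figure D3:**
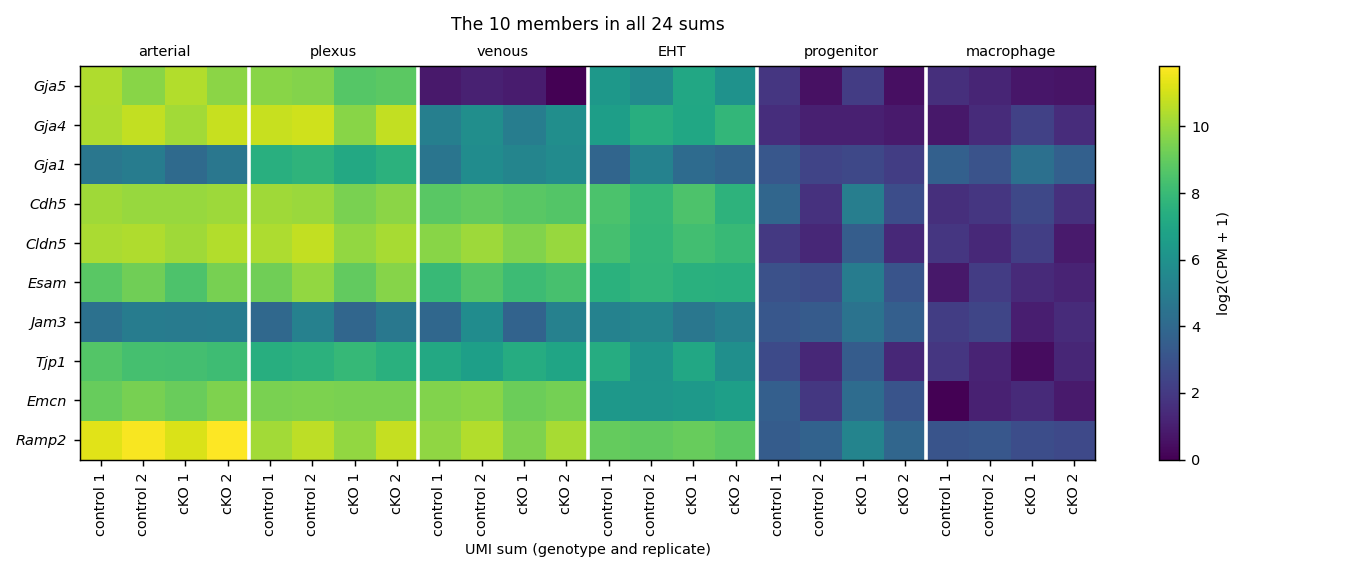
Level of the 10 members, as log2(CPM + 1), in all 24 sums, ordered by cell group, genotype and replicate. Gja1 and Jam3 are the members that do not darken from the arterial-like to the EHT-like columns, and cKO replicate 1 is the brightest progenitor-like column.

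All 10 members were lower in progenitor-like than in EHT-like cells, against 15.7% of all genes lower, 9.85% higher and 25.6% in all, with a median log2 difference of -4.70 over the members and -0.02 over all genes. Each of the 10 had all 4 progenitor-like sums below all 4 EHT-like sums, as 17.3% of all genes did. Of the progenitor-like cells 34 held the megakaryocyte markers Gp9 and Treml1, and all 10 members were again lower without cells of that kind. Gja4 changed most (log2 fold change -6.99 ± 0.45, adjusted p = 9.98e-09), from 154.9 ± 54 to 1.22 ± 0.51 CPM (SD, n = 4 sums). Jam3 changed least, from 34.3 ± 7.2 to 12.5 ± 6.1 CPM (-1.44 ± 0.39, adjusted p = 0.00980). The Jam3 call was lost when cells were kept in every gate they met (adjusted p = 0.136), on thinned counts (0.198), without control replicate 2 (0.0577) and without cKO replicate 2 (0.117). The Gja1 call (-1.90 ± 0.36, adjusted p = 0.000593) was lost when 2 UMIs of each marker were required (0.0691) and when cells were kept in every gate (0.0541). With the replicate as a block, 4449 genes passed in this comparison in place of 2823, and all 10 members were again among them.

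Between plexus-like and arterial-like cells 2 of 10 members passed, Gja1 (above) and Ramp2, against 5.17% of all genes (571, or 1186 with the replicate block; 2.56% higher and 2.61% lower). Ramp2 was at 949 to 1776 CPM in plexus-like cells and 2298 to 3603 CPM in arterial-like cells (-1.04 ± 0.28, adjusted p = 0.0358). The Ramp2 call was lost without control replicate 1 (adjusted p = 0.322) or 2 (0.209), without the cells that hold markers of other types (0.0676), with the C1qa limit at 100 CPM (0.0807) and with cells kept in every gate (0.121), with log2 fold changes from -1.08 to -0.905 under these settings. Most other junction genes overlapped: Cdh5 was at 685 to 1118 CPM, Cldn5 at 966 to 1724 CPM and Emcn at 689 to 710 CPM in plexus-like cells, with log2 differences from arterial-like cells of -0.16, 0.05 and 0.21 (adjusted p = 0.921, 0.989 and 0.792). Tjp1 was lower in all 4 plexus-like sums (170.3 to 244 CPM) than in any arterial-like sum (279 to 406 CPM), but the test did not pass (-0.68 ± 0.37, adjusted p = 0.371), except without the filter on low counts (0.0216).

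Venous-like cells differed from arterial-like cells in 5 of 10 members, 4 lower and 1 higher, against 11.7% of all genes lower, 12.1% higher and 23.8% in all (2625 genes, or 4126 with the replicate block). Gja5 and Gja4 were lower by far, Gja4 with a log2 fold change of -4.97 ± 0.36 (adjusted p = 1.20e-07). Ramp2 was at 741 to 1406 CPM (-1.28 ± 0.28, adjusted p = 0.00286) and Tjp1 at 102 to 158 CPM (-1.17 ± 0.36, adjusted p = 0.0262), and Gja1 was higher, as given above. The Tjp1 call was lost without control replicate 1 (adjusted p = 0.146) or 2 (0.111), with 2 UMIs of each marker (0.0736) and with cells kept in every gate (0.0613), and the Ramp2 call without control replicate 1 (0.0724). Cdh5 lay just outside the threshold: its venous-like sums held 445 and 496 CPM in the controls and 443 and 407 CPM in the cKO, all below the arterial-like sums, with a log2 difference of -1.09 ± 0.40 (adjusted p = 0.0588). It passed with the replicate block (-1.10, adjusted p = 0.0288), with RLE normalization, in DESeq2 and under 4 other settings. Emcn, known as a venous and capillary marker in adult vessels, was at 578 to 832 CPM in venous-like and 542 to 748 CPM in arterial-like cells, and these ranges overlapped (0.32 ± 0.27, adjusted p = 0.432). Between venous-like and plexus-like cells, 4 of 10 members were lower in venous-like cells, against 8.34% of all genes lower, 10.3% higher and 18.6% in all: the 3 connexins and Esam (-1.07 ± 0.33, adjusted p = 0.0310). The Esam call was lost under 6 settings, 3 of which leave out 1 set of cells.

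**Figure D4:**
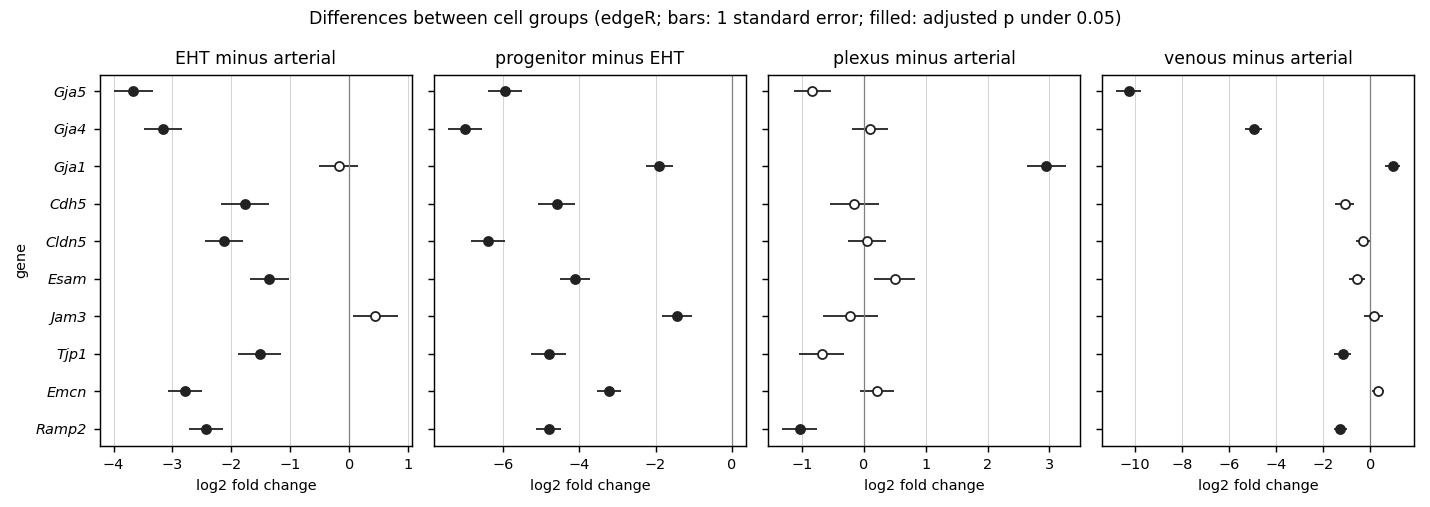
Log2 fold changes of the 10 members in 4 comparisons of cell groups, from the edgeR fit over all 24 sums; bars are 1 standard error, and filled points have an adjusted p under 0.05. In EHT-like cells 8 members lie left of 0 with filled points, and in plexus-like cells Gja1 alone lies far to the right, at 2.95; the Gja5 value in venous-like cells rests on 5 UMIs.

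Macrophage-like cells gave the background of the members. All 10 were lower there than in arterial-like cells, against 27.6% of all genes lower, 29.5% higher and 57.2% in all, and for 9 of them the 4 sums lay between 0 and 8.31 CPM. Gja1 was different: it was at 7.02 to 19.6 CPM, overlapping arterial-like cells (16.0 to 30.5 CPM), with a log2 difference of -0.78 ± 0.32 that only just passed (adjusted p = 0.0478) and did not pass under 5 of the alternatives. Macrophage-like cells held 1.54 Gja1 UMIs for each Ramp2 UMI, while all cells together held 0.0460 and megakaryocyte-marker cells 0.276. At 6000 UMIs per cell, Gja1 was detected in 5.21% of macrophage-like cells (3.54 to 7.35), against 0.427% of megakaryocyte-marker cells (0.0108 to 2.36).

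Over the 24 sums, the adhesion and surface genes rose and fell together, which describes the cell groups as much as the genes, since all points share libraries and groups. Pearson's r of the log2 CPM of Cdh5 with Cldn5 was 0.986, with Esam 0.983, with Tjp1 0.982 and with Ramp2 0.982. Gja4 had an r of 0.911 with Cdh5, Gja5 of 0.709, Gja1 of 0.671 and Jam3 of 0.756. Among all genes tested, the genes most like Gja5 were Bmx (r = 0.972), Sox6 (0.956), Ptchd1 (0.956), Vwf (0.955) and 5930403L14Rik (0.954). Those most like Gja4 were Gm14207, Dll4, Unc5b, Hey1 and Npr3 (0.976 to 0.977), those most like Gja1 were Tnfaip8l1, Rasgrp3, Lxn, Adm and Lhfpl2 (0.901 to 0.924), and those most like Cdh5 were Cgnl1, Col4a2, Ecscr, Adgrf5 and Fkbp10 (0.988 to 0.994).

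Other junction genes were counted as lists, to be read against the 34.4% of all genes that passed between EHT-like and arterial-like cells (16.6% lower, 17.8% higher). Of 13 further gap junction genes only 2 passed the filter, and 1 of them, the connexin gene Gjc1 (Cx45), was lower in EHT-like than in arterial-like cells, at 6.40 to 19.8 CPM against 53.8 to 81.6 CPM (-2.03 ± 0.34, adjusted p = 0.000154). In venous-like cells Gjc1 stayed at 58.0 to 72.3 CPM. Of 7 adherens junction genes tested, 4 were lower and 0 higher in EHT-like cells (median -0.84, against 0.04 over all genes), led by Jup (plakoglobin; -2.45), Ctnna1 (alpha-catenin; -1.70) and Ctnnb1 (beta-catenin; -0.84). Of 15 tight junction genes tested, 5 were lower and 1 higher. The share passing in either direction was near that of all genes, while the list median was -0.57, against 0.04 over all genes. The 3 with the smallest adjusted p were Cgnl1 (paracingulin, -1.85), F11r (JAM-A, -1.69) and Pard3 (-1.56). All 10 endothelial surface genes were lower, led by Pecam1 (CD31, one of the 2 sorting markers; -1.98), Plvap (-2.57) and Podxl (-1.93).

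The tight junction gene Ocln (occludin) differed among the vessel types. It was at 24.5 to 28.3 CPM in arterial-like and 16.1 to 29.1 CPM in EHT-like cells, but at 1.18 to 6.72 CPM in plexus-like cells (log2 fold change from arterial-like cells -2.98 ± 0.51, adjusted p = 0.00226) and at 0 to 1.51 CPM in venous-like cells. Cldn7, a claudin gene, was also lower in plexus-like than in arterial-like cells (-3.30 ± 0.79, edgeR adjusted p = 0.0201). It was lower in venous-like than in arterial-like cells too (-4.48 ± 0.75, edgeR adjusted p = 0.000329). Of 5 further genes listed beside Ramp2, the receptor gene Calcrl was lower in plexus-like cells (85.9 to 235 against 490.0 to 537 CPM, -1.71 ± 0.28, edgeR adjusted p = 0.00131), as Ramp2 was. The ligand gene Adm was higher (17.3 to 43.5 against 0.943 to 5.25 CPM, 3.54 ± 0.61, edgeR adjusted p = 0.00203). Ramp1, the alternative partner of the same receptor, was at 0.739 to 59.7 CPM in EHT-like cells and 71.3 to 146 CPM in progenitor-like cells (progenitor minus EHT 2.51 ± 0.78, adjusted p = 0.0305), opposite in direction to Ramp2.

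The targeted gene was checked before the genotypes were compared. In EHT-like cells Nupr1 was at 56.9 and 41.4 CPM in the controls and 3.30 and 3.73 CPM in the cKO (log2 fold change -3.76 ± 0.69; adjusted p = 0.748, and 0.0263 with the replicate block), so the labels held, and macrophage-like cells had 33.1 and 45.8 against 0.326 and 2.62 CPM. No Nupr1 UMI was found in plexus-like or venous-like cells of either genotype, so the deletion could not be checked there. The genotypes also differed in sex-linked transcripts. The share of cells with Xist and no Y-linked transcript was 0.872% in cKO and 92.8% in control replicate 1, and 57.6% and 98.7% in replicate 2. Genotype and the sex of the embryos therefore cannot be told apart in replicate 1. In replicate 2 the imbalance ran the same way, and its part in the genotype differences was not tested.

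No difference between cKO and control passed for any member in any of the 6 cell groups: 0 of 60 tests passed, as 0.0% of all genes did (adjusted p from 0.848 to 1.00). Below 0.05 before adjustment were 3 of the 60, Esam and Ramp2 in progenitor-like cells and Jam3 in macrophage-like cells, all with an adjusted p of 1.00. Over all genes, up to 694 were below 0.05 before adjustment in a group (plexus-like cells). The deleted gene Nupr1 did not pass in this fit either. Its log2 fold change was -3.76 in EHT-like cells (edgeR adjusted p = 0.748) and -4.34 in macrophage-like cells (0.0611). The absence of calls therefore does not show that the members were unchanged. With the replicate block 2 to 47 genes passed in 5 of the groups and 0 in venous-like cells, and no member was among them. The test of whether the genotype difference differed between EHT-like and arterial-like cells passed for 0 members (edgeR adjusted p = 1.00 for each).

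In arterial-like cells the genotypes were close within each pool. The log2 difference of Gja5 was 0.03 in replicate 1 and 0.01 in replicate 2, that of Cdh5 was -0.13 and 0.08, and that of Ramp2 was -0.11 and 0.11. The mean differences of the 10 members ran from -0.45 (Gja1) to 0.27 (Jam3). In plexus-like cells 7 of 10 members were lower in the cKO in both pools and 0 were higher in both, against 30.2% and 24.2% of all genes. In venous-like cells 6 were lower and 1 higher in both, against 28.2% and 23.2%. Among the plexus-like sums, Gja5 was lower in the cKO by 1.01 in replicate 1 and 0.77 in replicate 2 (413 and 461 CPM in the cKO, 834 and 784 CPM in the controls). Gja4 was lower there by 1.11 and 0.25. For both genes the cKO sums lay below the control sums, while Gja1 overlapped. The cKO sums also lay below the control sums for Cdh5 (685 and 863 against 1118 and 1059 CPM). So did those of Cldn5 (966 and 1221 against 1303 and 1724 CPM). The share of all genes with such separate sums was not counted. For Gja5, the fitted difference of -0.83 ± 0.42 had an adjusted p of 0.848. The plexus-like sums rest on 15 to 23 cells each. The cKO replicate 1 sum, lowest in Gja5, Gja4 and Cdh5, also had the most of the 3 venous check markers (152 CPM, against 74.7 to 98.7 CPM in the other 3) and of the venous gate genes (54.1 against 2.30 to 7.40 CPM), and the least of the 3 plexus markers (927 against 1195 to 1554 CPM). Their part in the genotype difference was not tested.

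In EHT-like cells both arterial connexins were higher in the cKO in both pools, Gja5 by 0.80 and 0.31 and Gja4 by 0.43 and 0.39 on the log2 scale. The values of the genotypes overlapped for both genes, and the fitted differences, 0.65 ± 0.44 and 0.43 ± 0.43, did not pass (adjusted p = 1.00). Both turned negative when 2 UMIs of each marker were required (-0.85 and -0.93) or when cells were kept in every gate (-0.25 and -0.60), and Gja4 also without the cells that hold markers of other types (-0.08), so no direction can be given. Jam3 (-0.55 and -0.30), Tjp1 (-0.27 and -0.29) and Esam (-0.07 and -0.33) were lower in the cKO in both pools, by less than the difference between the pools for Tjp1 (58.1 to 160.4 CPM over the 4 sums). Gja1 went in opposite directions (0.29 and -1.53).

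**Figure D5:**
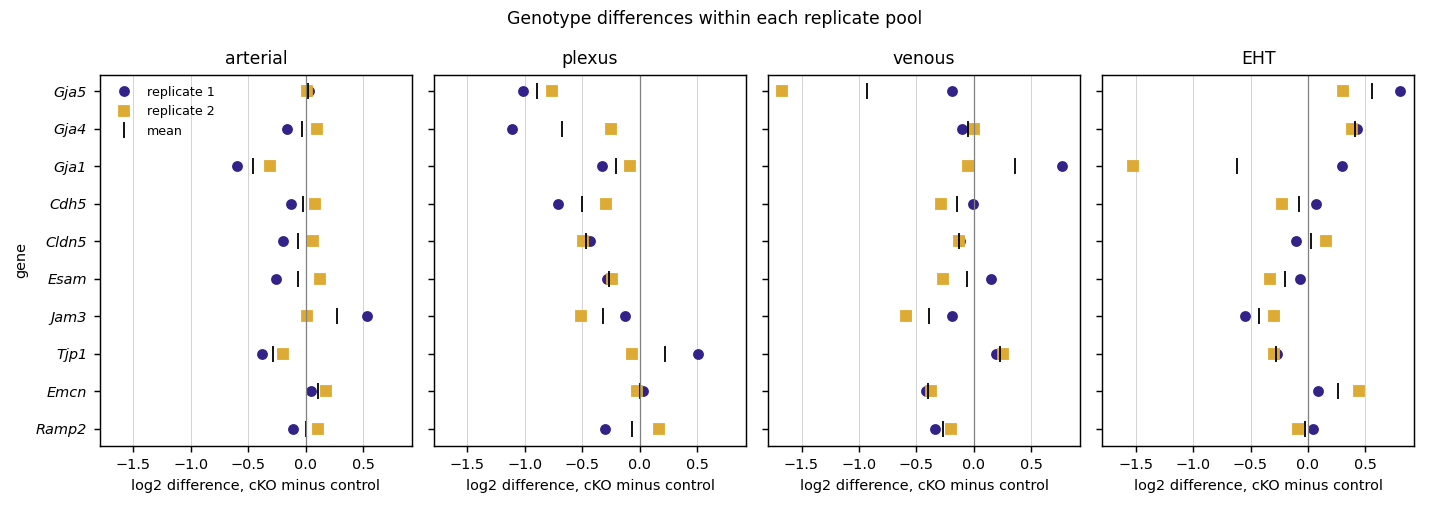
Log2 difference between cKO and control for each member within replicate 1 (circles) and replicate 2 (squares), with the mean as a tick, in the arterial-like, plexus-like, venous-like and EHT-like cells. In plexus-like cells 7 members lie left of 0 in both replicates, against 30.2% of all genes. In EHT-like cells 3 lie left and 3 right, against 28% and 21.7% of all genes. The venous-like Gja5 values rest on 0 to 3 UMIs a sum, and no difference passed the edgeR test.

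In progenitor-like cells 6 of 10 members were higher in the cKO in both pools and 2 lower, against 29.3% and 19.7% of all genes. The differences were 1.20 and 1.39 for Cdh5 and 0.68 and 1.37 for Emcn. For Esam and Ramp2 the cKO replicate 1 sum stood apart. Esam was at 29.7 CPM in cKO replicate 1 and at 5.75 to 7.52 CPM in the other 3 sums, and Ramp2 at 38.9 CPM against 9.80 to 13.9 CPM. Cdh5 in that sum was at 32.4 CPM, against 14.0 CPM in control replicate 1, 5.94 CPM in cKO replicate 2 and 2.21 CPM in control replicate 2. The sum holds 27 cells, the fewest of the progenitor-like sums, and the part that cells close to the EHT-like group play in it was not tested.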

How the data were processed

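Cells were captured on 10x Chromium V3 and the 2 replicate libraries were deposited as raw UMI counts per gene and cell, with a hashtag label (WT or KO) for each cell. Per the labels and the methods, the authors used Cell Ranger 5.0.1 and the mm10 build, and kept hashtag singlets in Seurat; this removes doublets between hashtags only, and no further caller was run. The annotation they counted on is not given in the sources used here. The members and lists were chosen with earlier results of these data known. Named genes were the 10 members, up to 3 genes of each junction list with the smallest adjusted p per comparison (1 such gene is not reported here), and the 5 genes most like Gja5, Gja4, Gja1 and Cdh5.

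Gates used at least 1 UMI of both markers, with macrophages taken first; 162 cells that met 2 or more pair gates were kept apart. UMI counts were summed per group, genotype and replicate (at least 10 cells) and tested in edgeR 4.0.16 (R 4.3.3), with filterByExpr and TMM scaling, by its robust quasi-likelihood test (1 mean per group and genotype, Benjamini-Hochberg adjustment over all genes, threshold 0.05). The SE of a log2 fold change is its size divided by the square root of the F statistic. Within-replicate differences used 0.5 UMI as a pseudocount, and correlations used log2 CPM with a prior count of 2. The genotypes of a replicate share 1 pool, so replicate numbers pair the sums. Paired deviations correlated across genes with r = 0.141 (plexus-like) to 0.480 (macrophage-like). The main fit left out this pairing, in the genotype tests too, and counted the sums as independent. The replicate block, among the alternatives, included it. Other analyses used Python 3.11.15, SciPy 1.17.1 and DESeq2 1.42.0.

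Pools held 334 and 748 control and 344 and 713 cKO cells with medians of 38416.5 to 62116 UMIs. The hashtag labels, the other deposited values, gave the genotype. Gene positions are from GENCODE M21 (GRCm38), and promoters from RefSeq (GRCm38.p6), where 6 of the 10 members had an entry. Alternatives were the replicate block, RLE normalization, DESeq2, no low-count filter, leaving out each genotype and replicate set, stricter and non-exclusive gates, C1qa above 100 or 500 CPM, the stated cell limits (over 1800 genes and 6000 UMIs, under 5% mitochondrial reads), thinning to 6000 UMIs, sums of at least 5 cells, and, added after the data were seen, leaving out cells with Gp9 and Treml1 or with 3 of 5 mesenchymal markers.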

Additional observations from a re-analysis of the deposited data

Results flagged for a closer look

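Of 60 sets of 4 sums (10 members in 6 cell groups), 5 had 1 sum far from the other 3 by Dixon's criterion, which chance gives in about 1 of 20 sets. In 3 of them the outlying sum was cKO replicate 1 of the progenitor-like cells, the highest for Cldn5 (10.3 CPM), Esam (29.7 CPM) and Ramp2 (38.9 CPM). Gja1 in EHT-like cells was highest in control replicate 2 (37.4 CPM), where the other 3 sums lay at 12.8 to 16.5 CPM, and the same sum had 490 CPM of 5 mesenchymal markers against 26.7 to 124 CPM in the others. Jam3 in arterial-like cells was lowest in control replicate 1 (20.3 CPM), with the other sums at 29.2 to 30.1 CPM.

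Among cells that met no gate, 234 had the megakaryocyte markers Gp9 and Treml1 and entered no comparison, while 49 further cells with both markers were within the 6 groups. The 234 cells gave 2 sums with enough cells, both from replicate 2. There Esam, Gja4 and Jam3 were above the highest macrophage-like sum, and the share of all genes above it was not counted. Esam was at 95.7 CPM on average (3.34 CPM in macrophage-like cells), Gja4 at 16.5 CPM (3.91 CPM) and Jam3 at 11.2 CPM (4.56 CPM). Esam was detected in 84.6% of these cells and Gja4 in 53.8% at full depth (median 85407.5 UMIs), and in 32.9% and 12.8% at 6000 UMIs, while Gja5 was at 0.486 and 0.555 CPM and Cdh5 at 1.26 and 1.33 CPM. For each Ramp2 UMI these cells held 31.9 Esam and 5.48 Gja4 UMIs, against 0.322 and 0.4996 over all cells.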

How the results depend on the processing

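Of 60 member differences between cell groups, 39 kept their direction and side of the threshold under all 16 alternatives. Leaving out 1 genotype and replicate set in turn moved the number of genes passing from 3797 to 2173 to 2987 (EHT minus arterial), from 2823 to 1437 to 1991 (progenitor minus EHT), from 571 to 54 to 324 (plexus minus arterial, 54 without control replicate 1), from 2625 to 1002 to 1509 (venous minus arterial) and from 2060 to 661 to 1133 (venous minus plexus). For the genotype comparisons, with 0 genes, it gave 0 to 4 (arterial), 0 to 10 (plexus), 0 to 2 (venous), 0 to 18 (EHT), 0 to 7 (progenitor) and 0 to 9 (macrophage). Members called became 1 to 2 in place of 2 (plexus minus arterial) and 3 to 4 in place of 5 (venous minus arterial).

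The replicate block, which follows the pairing of sums in 1 pool, gave 4449 genes (progenitor minus EHT), 1186 (plexus minus arterial), 4126 (venous minus arterial) and 3160 (venous minus plexus), and between genotypes 2 (arterial), 47 (plexus), 3 (EHT), 4 (progenitor) and 6 (macrophage). Among members it changed the calls of Gja5 (plexus minus arterial) and Cdh5 (venous minus arterial) and no other. Thinning to 6000 UMIs, which lowers depth, gave 1445, 937, 175, 681, 523 and 2762 genes for EHT minus arterial, progenitor minus EHT, plexus minus arterial, venous minus arterial, venous minus plexus and macrophage minus arterial. No low-count filter gave 967 genes and 4 members for plexus minus arterial, and between genotypes 12 (arterial), 113 (plexus), 18 (venous), 107 (EHT), 41 (progenitor, with 1 member, Esam), 54 (macrophage) and 21 (interaction). Cells kept in every gate gave 1411 genes (progenitor minus EHT), 1206 (venous minus plexus), 1 between genotypes in macrophages, 1 member (plexus minus arterial) and 3 members (venous minus arterial). Requiring 2 UMIs gave 1257 genes (venous minus plexus), and 25 (plexus) and 1 (macrophage) between genotypes. DESeq2 gave 30 (plexus) and 1 (macrophage) between genotypes, C1qa above 100 CPM 1 (macrophage) and 1 member (plexus minus arterial), and leaving out cells with other types' markers 2 (plexus) and 1 member (plexus minus arterial).

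Signs turned for small differences. Thinned, Gja1 was 0.39 (EHT minus arterial; -0.63 to 0.11 leaving out sets), Jam3 0.28 and Emcn -0.024 (plexus minus arterial). With 2 UMIs and with every gate, Gja4 was -0.12 and -0.13 (plexus minus arterial; -0.020 to 0.15 leaving out sets) and Jam3 -0.39 and -0.034 (venous minus arterial; -0.33 to 0.48). With 2 UMIs, Cldn5 was -0.046 (plexus minus arterial; -0.084 to 0.12), and Jam3 -0.18 and Emcn -0.020 (venous minus plexus). Between genotypes in EHT-like cells, with 2 UMIs Gja5 was -0.85, Gja4 -0.93 and Gja1 0.020, with every gate Gja5 was -0.25 and Gja4 -0.60, and without cells with other types' markers Gja4 was -0.083. Leaving out sets gave -0.065 to 0.96 for Gja4 and -1.35 to 0.21 for Gja1. Where not stated, the cause was not tested. Sums of at least 5 cells left every sum as it was. Plexus-like and venous-like sums rest on 10 to 42 cells each, and the low level of Gja5 in venous-like cells on 0 to 3 UMIs a sum.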

Other observations

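The 378 cells that met no gate, other than the megakaryocyte-marker cells, held members at intermediate levels that differed between the pools. Gja5 was at 335 and 411 CPM in replicate 1 and 92.4 and 73.4 CPM in replicate 2 (control and cKO), Cdh5 at 442 and 516 against 130.1 and 144.6 CPM, and Ramp2 at 715 and 720.2 against 288 and 290.4 CPM. Gja4 and Gja5 were detected together in 38.6% of these cells at full depth. Their median depth was 37653.5 UMIs.

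In the 96 cells that met both the EHT and the progenitor gates, Esam was at 74.0 to 119 CPM and Emcn at 44.8 to 59.1 CPM, below every EHT-like sum. Cdh5 with Cldn5 was detected in 24 of the 96 cells after thinning to 6000 UMIs, and Cdh5 without Cldn5 in 28. Their 4 sums were not part of the fit, so no difference was tested.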
